A study of Homo sapiens with 8 samples.

Results

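H/ACA box small nucleolar RNAs (snoRNAs) were followed in small RNA libraries of exosomes and of the cells that release them. The rows were chosen by name, with earlier results of these data known. They are all rows of the count table whose symbol starts with SNORA, with ACA64 added. SNORA81, SNORA63, SNORA4 and SNORA33 were left out. This gave 96 of the 2709 rows. MEC-1 is an established line of leukaemic B cells (chronic lymphocytic leukaemia), and exosomes are small membrane vesicles that cells shed into their medium. The groups were MEC-1 exosomes (5 libraries) and parental MEC-1 cells (3 libraries), both untreated as far as the labels say. Cells grew in 2-compartment bioreactors in medium with 10% fetal calf serum. Calf vesicles had been spun out of all medium other than that of the upper compartment. Vesicles were pelleted by ultracentrifugation with a 20% density cushion, and RNA under 200 nt was used from both groups. The design text states that cell samples were paired with 3 of the exosome samples and does not name the pairs.

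H/ACA snoRNAs fold into hairpins joined by a hinge with the H box and end in a tail with the ACA box. With dyskerin (DKC1), NOP10, NHP2 and GAR1 they form particles that convert chosen uridines of ribosomal RNA to pseudouridine, and a few act in cutting the ribosomal precursor instead. Nearly all are cut out of introns of host transcripts, and mature particles reside in the nucleolus. The other large family, the C/D box snoRNAs, guides ribose methylation and shares the nucleolus and the intronic origin.

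To show what the rows hold, 4 sequences are printed that carry the contrasts described further on. SNORA64 was the most abundant row of cells per kb and fell in exosomes, and SNORA34 was among the most abundant in exosomes. SNORA6 and SNORA62 lie in 1 host gene, RPSA. Their ratio did not overlap between the groups, but its test did not pass after adjustment. Capitals mark the letters that match the H box (ANANNA, the match nearest the middle of the RNA, on the RNA strand) and the ACA found 3 bases from the 3′ end. They are transcripts of GENCODE release 29, written 5′ to 3′ with T for U, and the coordinates given with the results are those of GRCh37 from the deposited tables.
SNORA64: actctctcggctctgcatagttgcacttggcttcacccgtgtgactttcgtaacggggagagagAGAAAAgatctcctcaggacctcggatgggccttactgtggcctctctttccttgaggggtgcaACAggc
SNORA34: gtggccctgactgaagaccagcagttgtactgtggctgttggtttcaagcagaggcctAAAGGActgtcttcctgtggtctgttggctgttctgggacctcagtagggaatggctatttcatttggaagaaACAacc
SNORA6: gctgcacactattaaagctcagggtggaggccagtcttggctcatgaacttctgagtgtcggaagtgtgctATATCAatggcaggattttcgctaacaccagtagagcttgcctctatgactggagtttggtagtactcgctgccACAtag
SNORA62: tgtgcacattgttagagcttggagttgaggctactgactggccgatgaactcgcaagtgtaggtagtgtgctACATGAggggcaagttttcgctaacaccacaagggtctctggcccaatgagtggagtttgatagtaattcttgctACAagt
Of the 96 rows, 90 matched a GENCODE transcript of the same length on the same chromosome. An ACA at that place was found in 71 of the 90 (78.9%), against 1.39% of 288 C/D box transcripts and 1.70% of 822 other transcripts of 120 to 150 nt. The H box letters were found in 87 (96.7%), but also in 54.9% and 50.4% of those 2 comparison sets, so they set the rows apart less than the ACA does. H/ACA snoRNAs are named for these boxes, so the shares describe the rows and test nothing. The rows were 121 to 701 nt long with a median of 134 nt, and 86 of them were of 120 to 150 nt. By the same annotation 59 lay within an intron of a host gene and 30 overlapped an exon of at least 1 transcript of the host, 1 had no host, and 81 sat in protein-coding hosts.

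Before the comparisons, the libraries stood as follows. Total counts were 23353820 to 32436286 in exosome libraries and 25675636 to 57323598 in cell libraries. Exosome 5 and cell 2 had the lowest scaling factors (0.524 and 0.552, against 0.905 to 1.46 elsewhere). RN7SK, a nuclear RNA, took 0.055% of the reads of cell 2 and 1.37% and 1.62% of those of cells 1 and 3. Rows listed as B-cell and leukocyte microRNAs were present in both groups: the 3 of 5 listed rows that the table held summed to 6350 to 18245 CPM in exosome and 12930 to 27128 CPM in cell libraries (CPM, the count scaled to the TMM-adjusted library total). Nearly all of these sums was MIR21 (6050 to 17900 and 12800 to 26800 CPM, log2 fold change of exosome over cell -0.85). MIR150 (5.05 to 55.1 and 2.4 to 18 CPM, log2 1.58) and MIR181A1 (279 to 449 and 128 to 409 CPM, log2 0.32) had the other sign. None of the 3 was called. The nuclear marker RN7SK was at 167 to 272 CPM in exosomes and 997 to 17900 CPM in cells. The liver marker MIR122 was at 19.9 to 114 CPM in exosomes and 0.424 to 2 CPM in cells, and the stromal marker MIR143, 1 of 2 listed, at 3.22 to 26.9 and 0.424 to 0.933 CPM. The myeloid MIR223 (0.616 to 7.64 and 0.0665 to 5.32 CPM) and the muscle MIR1-1 (up to 1.68 and up to 0.0578 CPM) were low in both, while the red-cell MIR486 (22.4 to 88.3 and 9.47 to 51.7 CPM) and the 2 neural rows (7.28 to 53.5 and 46.8 to 91.4 CPM) overlapped between groups. The part of these differences in the H/ACA results was not tested. No label says that the libraries of a group stem from separate cultures, and p-values then reflect only how these samples vary, perhaps for technical reasons alone.

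H/ACA rows together were a minor part of both groups. They took 0.063%, 0.0817%, 0.135%, 0.0444% and 0.0269% of the reads of exosomes 1 to 5. In cells 1 to 3 they took 0.174%, 0.132% and 0.251%. The groups overlapped, since exosome 3 lay just above cell 2. The mean share was 0.0702% ± 0.0415 (SD, n = 5) in exosomes and 0.186% ± 0.0606 (SD, n = 3) in cells, a 2.64-fold difference. Counting error was small beside this spread, with exact 95% binomial intervals of 0.0263% to 0.0275% in exosome 5 and 0.131% to 0.133% in cell 2. Intervals cover counting error only, since the reads carried no molecular identifiers. In bulk RNA, fewer molecules per cell or vesicle and fewer cells or vesicles that hold them cannot be told apart.

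C/D box rows took 0.689% to 3.19% of the exosome libraries and 19.6% to 30.6% of the cell libraries, with no overlap. Their mean share was 14.2-fold lower in exosomes, against the 2.64-fold of H/ACA rows. For each H/ACA read there were 28.6, 25.8, 23.6, 26.4 and 25.6 C/D reads in exosomes 1 to 5. In cells 1 to 3 there were 113, 197 and 122. Exosome libraries lay close together in this ratio (26.0 ± 1.78, SD, n = 5) although their H/ACA shares spanned from 0.0269% to 0.135%, and every cell library lay above every exosome library (144 ± 46.1, SD, n = 3). On the log2 scale H/ACA over C/D was -4.70 ± 0.0986 in exosomes and -7.12 ± 0.436 in cells. Without SNORA18, the most abundant row, the exosome mean was -5.10 and the cell mean -7.33. The ratio is a sum over chosen rows and carries no test.

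**Figure D1:**
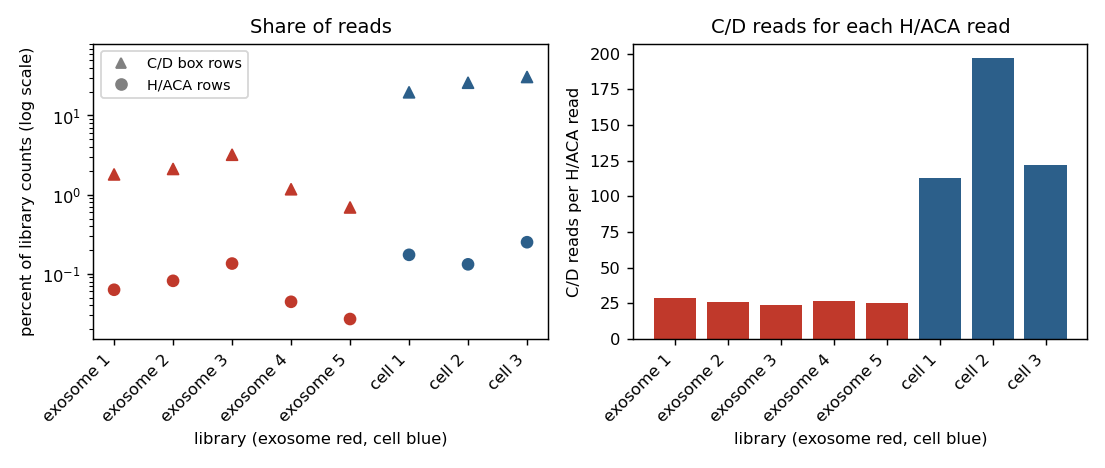
Left, percent of each library's counts (log axis) on C/D box rows (triangles) and H/ACA rows (circles), exosome libraries in red and cell libraries in blue. Right, C/D reads for each H/ACA read, one bar per library: the 5 exosome libraries sit between 23.6 and 28.6 and the 3 cell libraries between 113 and 197.

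Most H/ACA rows were detected in both groups. At least 10 counts were found for 66, 74, 76, 65 and 52 of the 96 rows in exosomes 1 to 5 and for 78, 70 and 81 in cells 1 to 3. Thinned to 23353820 counts each, the libraries had 64, 73, 76, 65 and 52 such rows in exosomes and 77, 60 and 80 in cells, so cell 2 lay below 4 of the exosome libraries. A filter on low counts left 78 rows to test. Of the other 18, 4 had no read in any library (SNORA2, SNORA35, SNORA70C and SNORA70F), 9 had 1 to 10 reads in all, and 5 had more (SNORA59A, SNORA59B, ACA64, SNORA14A and SNORA11E, at most 84 reads in total). No exosome read was found for 8 of the 18.

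A few rows held much of the family. SNORA18, a guide of 28S rRNA hosted in TAF1D, was first in every exosome library with 14.1% to 29.6% of the H/ACA reads. Cells had no common leader, with SNORA31 first in cell 1 (11% of H/ACA reads), SNORA7A in cell 2 (24.6%) and SNORA18 in cell 3 (19.1%). Per kb of row length, the mean level in exosomes was 1170 CPM per kb for SNORA18, 585 for SNORA34, 324 for SNORA7A, 165 for SNORA64 and 149 for SNORA62. SNORA34 and SNORA18 overlapped in range there (394 to 1270 and 540 to 2150 CPM per kb), as did the next rows down. In cells the order began with SNORA64 (2810 CPM per kb), SNORA18 (2300) and SNORA7A (2180), whose ranges overlapped widely, followed by SNORA74 (919), SNORA47 (833) and SNORA34 (649). The median row tested stood at 18.4 CPM per kb in exosomes and 56.6 in cells, far under the median C/D row (230 and 1680 CPM per kb). Where a read covers a whole RNA, division by length raises short rows, so rows of unlike length compare only roughly.

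H/ACA rows as a family were lower in exosomes relative to the other small RNAs, and unevenly so. Of 78 tested, 33 (42.3%) were called lower at an adjusted p under 0.05, where 22.3% of all 1178 rows were called lower. None was called higher (edgeR's quasi-likelihood test with Benjamini-Hochberg adjustment over all rows), where 20.7% of all rows were (43% of all rows were called in one direction or the other). None was higher at an unadjusted p under 0.05 either, and neither DESeq2 nor limma-voom called any higher. The absence of higher calls depends on the choice of rows, made with earlier results known. SNORA81, 1 of the 4 rows left out, was called higher in the same edgeR fit (log2 3.39, adjusted p = 0.000348). With the left-out rows, 1 of 82 tested H/ACA rows was higher. The median log2 fold change, exosome over cell, was -1.51, against -0.09 over all rows tested and 0.04 over all rows but these. Groups did not overlap for 31 of the 78 rows, all lower in exosomes, where 20.1% of all rows were apart in that direction and 21.6% in the other. Among C/D box rows 104 of 146 (71.2%) were called lower, with a median of -2.73.

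The 33 calls began at a size of 1.33 on the log2 scale. Standard errors ran from 0.48 to 1.31 with a median of 0.68, so smaller changes could seldom be told from the spread. Of the 45 rows without a call, 18 were below -1, 26 lay within 1 of no change and 1 was above 1. In all, 66 of the 78 estimates were below 0 and 12 above.

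**Figure D2:**
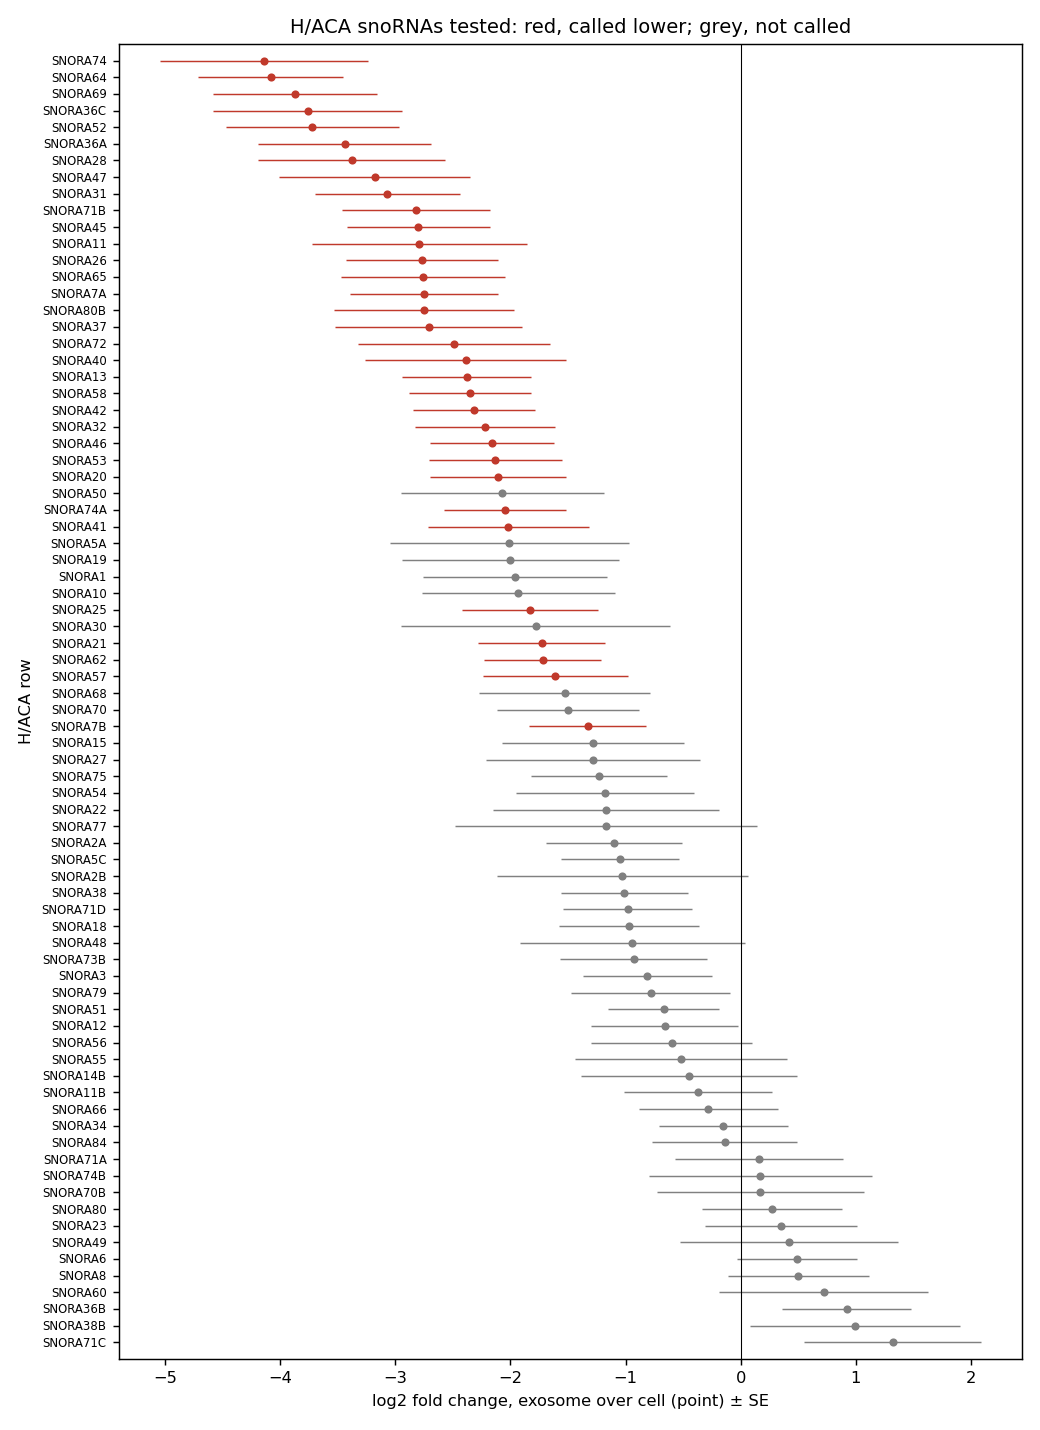
Log2 fold change of each tested H/ACA row, exosome over cell, with its standard error, sorted by size; red rows were called lower and grey rows were not called. Estimates run from -4.14 (SNORA74) to 1.32 (SNORA71C), and no red point lies right of 0.

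One cell library carries much of this count. Cell 3 had the highest level among cells for 52 of the 78 rows, and for 18 of the 33 called lower, while cell 2 had the lowest level for 53. Without cell 3, 14 of 77 tested rows (18.2%) were lower, where 15% of all features were, and 2 were higher. The median then was -0.65 while that of all rows rose to 0.38. The 14 were all among the 33. The 2 higher ones, named after their values were seen, were SNORA71A (log2 2.21, adjusted p = 0.034) and SNORA23 (log2 1.94, adjusted p = 0.0474). Without any other single library 23 to 34 rows (29.5% to 43%) were lower and none higher, where 16.9% to 22.5% of all features were lower. Without exosome 5 and cell 2 together, a choice made after seeing the data, 36 (45%) were lower with a median of -1.69. Of all features 19.9% were lower in that fit.

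**Figure D3:**
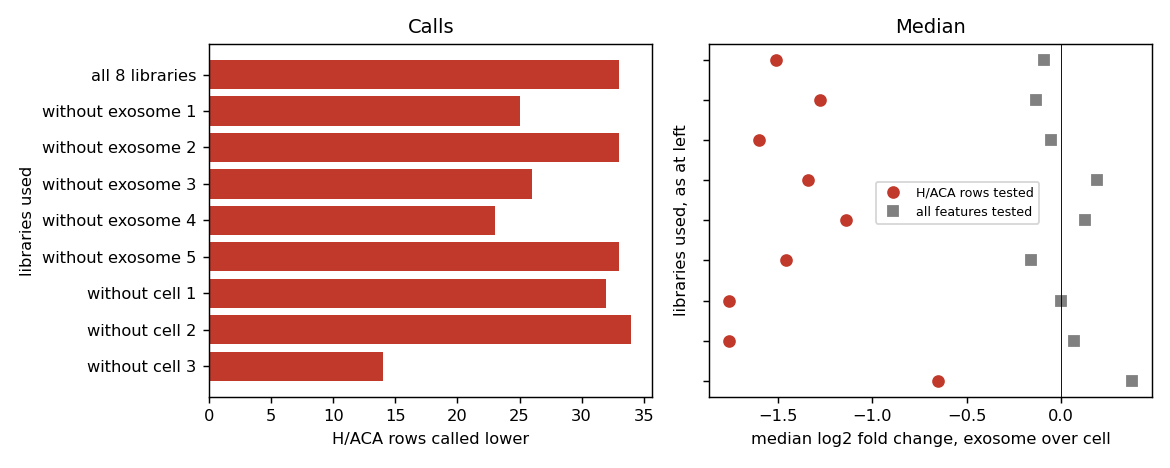
Left, number of H/ACA rows called lower with all 8 libraries and with each library left out in turn. Right, median log2 fold change of the tested H/ACA rows (circles) and of all rows tested (squares) for the same sets: the count falls from 33 to 14 without cell 3, and both medians move up there.

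Guides of 28S rRNA, the RNA of the large ribosomal subunit that holds the peptidyl transferase centre, were lower or not called. Of 24 listed, 20 were tested: 10 (50%) were lower, none higher and 10 not called, with a median of -1.63, where 42.3% of all tested H/ACA rows and 22.3% of all features were lower. SNORA64, hosted in the ribosomal protein gene RPS2 (chromosome 16, 2012974 to 2013107), stood at 21.5, 27.5, 29.4, 9.42 and 23.1 CPM in exosomes 1 to 5 and at 89.9, 573 and 466 CPM in cells 1 to 3. Every exosome library was below every cell library, though cell 1 lay far under the other cells. The log2 fold change was -4.08 (SE 0.63, adjusted p = 0.000181), and -3.48 without cell 3.

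SNORA7A, from the RPL32 gene (chromosome 3, 12881811 to 12881949), was at 50.9, 34.1, 57.9, 13.2 and 69.4 CPM in exosomes and 102, 587 and 218 CPM in cells. Groups were apart, with cell 2 highest. SNORA7A fell by 2.75 on the log2 scale (SE 0.64, adjusted p = 0.00276), by 2.11 without exosome 4 and by 1.92 without cell 2. SNORA31 stood at 8.53, 11.2, 11.7, 3.11 and 13.8 CPM in exosomes and 135, 22.8 and 86.9 CPM in cells. All exosome values were lower, and cell 2 was nearest to them (log2 -3.07, SE 0.63, adjusted p = 0.00123, and -3.67 without cell 2). The SNORA31 row joins 3 loci on chromosomes 4 and 13, so its reads and its length of 372 nt are sums over copies.

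SNORA52, hosted in RPLP2, a gene for a protein of the ribosomal stalk, was at 1.6, 1.45, 0.898, 0.469 and 0 CPM in exosomes and 13.9, 9.91 and 11.9 CPM in cells. The cell values lay close together and exosome 5 had no read, where a count of 0 allows up to 3 counts of 0.0699 CPM each. Its log2 fold change was -3.72 (SE 0.75, adjusted p = 0.00116). SNORA62, the RPSA-hosted guide shown above, was at 22.8, 22.6, 21.0, 10.9 and 36.9 CPM against 63.2, 80.3 and 81.9 CPM. Groups were apart (log2 -1.72, SE 0.51, adjusted p = 0.0126), but the call was lost without exosome 3 (adjusted p = 0.0826), exosome 4 (0.0832) or cell 3 (0.0765). Total count scaling (0.0704) and the filter of at least 50 counts in 3 libraries (0.051) lost it too. SNORA65, from RPL12, averaged 4.06 ± 2.64 CPM (SD, n = 5) against 27.7 ± 29.9 CPM (SD, n = 3), with 61.9 CPM in cell 3 and 14 and 7.05 CPM in the other cells. It was called lower (log2 -2.76, adjusted p = 0.00519), but not without cell 3 (log2 -1.07, adjusted p = 0.243).

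The 5 rows of the set most abundant per kb in exosomes were all listed guides of 28S rRNA. Of these, SNORA7A, SNORA64 and SNORA62 were called lower, while the first 2, SNORA18 and SNORA34, were not called. SNORA18 was at 126, 221, 284, 71.3 and 72.6 CPM in exosomes and 117, 265 and 530 CPM in cells. The groups overlapped over most of their range, with exosomes 4 and 5 under all cells and exosome 3 above cells 1 and 2. Its log2 fold change was -0.97 (SE 0.61, adjusted p = 0.217), and 0.08 without cell 3. SNORA34, from an intron of KANSL2 (chromosome 12, 49048165 to 49048301), was at 60.4, 58.1, 174, 54.0 and 54.1 CPM against 59.4, 80.4 and 127 CPM. Exosome 3 was the highest of the 8 libraries and the other exosomes stood near cell 1. The log2 value was -0.15 (SE 0.56, adjusted p = 0.853), and its sign turned under total count (0.27) and upper-quartile scaling (0.10). SNORA6, the RPSA neighbour of SNORA62, was at 15.2, 18.5, 18.3, 13.6 and 17.3 CPM in exosomes and 5.98, 19.1 and 10.3 CPM in cells. Exosome libraries lay within a narrow band inside the range of the cells (log2 0.49, SE 0.52, adjusted p = 0.478).

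**Figure D4:**
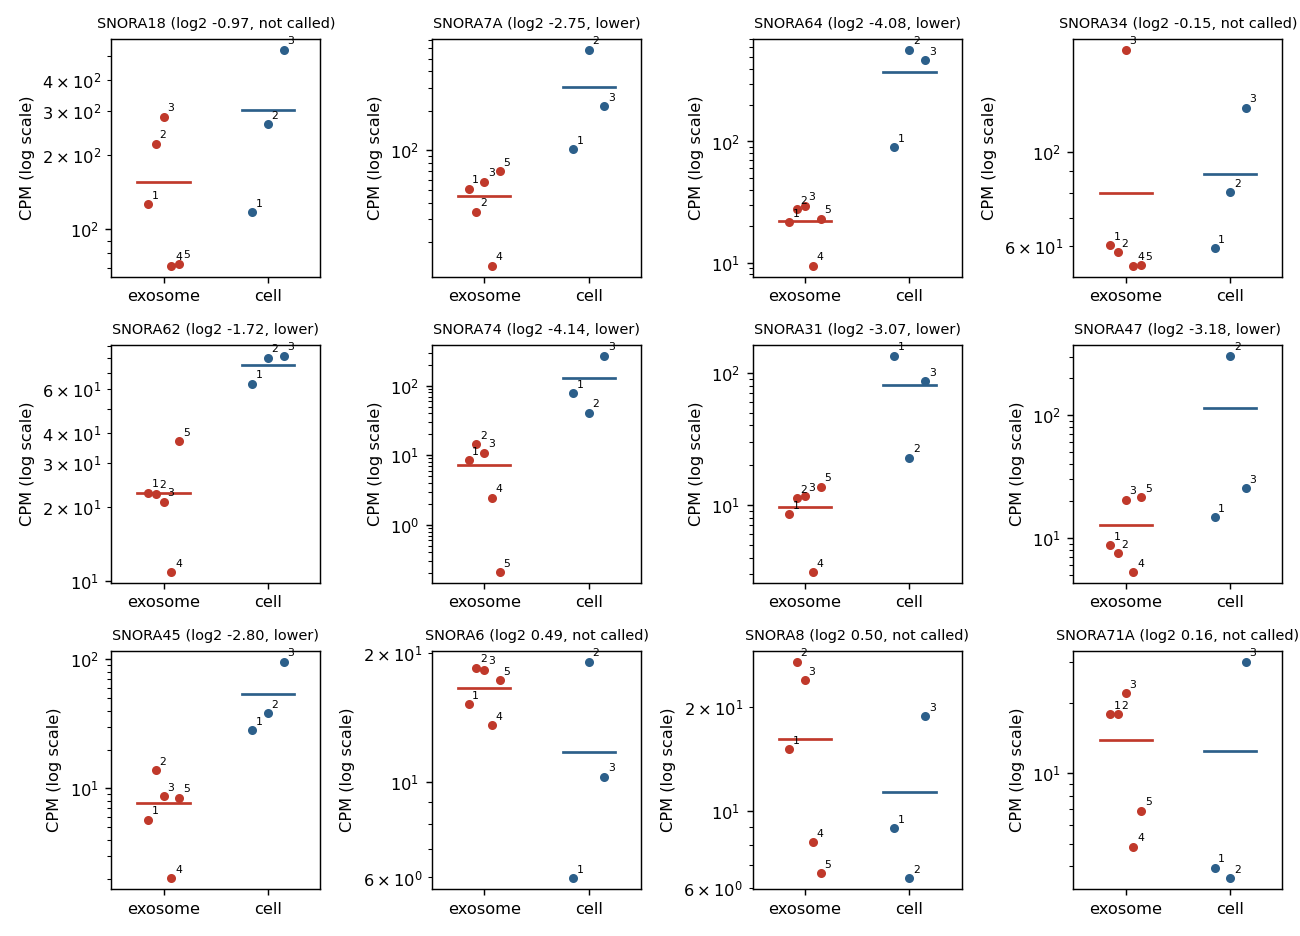
CPM by library (log axis) for 12 abundant or contrasted H/ACA rows, exosome libraries red and cell libraries blue, numbered by replicate, with bars at group means. SNORA64, SNORA7A, SNORA62, SNORA74, SNORA31 and SNORA45 separate fully, SNORA47 is lifted by cell 2 alone, and the exosome and cell points of SNORA18, SNORA34, SNORA6, SNORA8 and SNORA71A overlap.

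Guides of 18S rRNA, the RNA of the small subunit, gave a like count: 19 of 23 listed were tested, 10 (52.6%) were lower, none higher and 9 not called, with a median of -2.07. SNORA69, hosted in RPL39, was at 0.123, 1.03, 0.592, 0.557 and 1.68 CPM in exosomes and 9.99, 4.86 and 19.3 CPM in cells. Groups were well apart (log2 -3.87, SE 0.71, adjusted p = 0.000619, and -2.94 without cell 3). SNORA28, from an intron of EIF5, was at 0.368, 0.913, 0.942, 0.235 and 0.0699 CPM against 6.01, 0.865 and 9.42 CPM, so that cell 2 fell among the exosomes. It was called lower (log2 -3.38, adjusted p = 0.00334), but not without cell 3 (log2 -2.48, adjusted p = 0.0607).

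SNORA13, hosted in the non-coding gene EPB41L4A-AS1, was at 5.49, 5.28, 4.08, 2.11 and 4.47 CPM in exosomes and 36.8, 7.25 and 23.0 CPM in cells. Cell 2 was again nearest to the exosomes, without overlap (log2 -2.38, SE 0.56, adjusted p = 0.00319). SNORA46, from CNOT1, was lower as well (log2 -2.16, adjusted p = 0.00419), with 5.57 ± 2.23 CPM (SD, n = 5) against 24.9 ± 10.1 CPM (SD, n = 3), and lost its call without cell 3 (log2 -1.49, adjusted p = 0.059). SNORA66, from RPL5, was at 6.17, 29.9, 15.0, 5.07 and 19.0 CPM in exosomes and 22.4, 13.1 and 19.2 CPM in cells. Its exosome values spanned all cell values (log2 -0.28, SE 0.60, adjusted p = 0.743).

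Of the H/ACA RNAs that act in cutting the ribosomal precursor, SNORA73B (U17b, chromosome 1, 28835071 to 28835274) was tested. It was at 4.45, 20.4, 21.3, 7.22 and 5.87 CPM in exosomes and 26.1, 7.92 and 33.8 CPM in cells. Exosomes 2 and 3 lay above cell 2, and the difference was not called (log2 -0.93, SE 0.64, adjusted p = 0.259). The row is 204 nt long, above the 200 nt limit of the input RNA, so reads on it may stand for fragments. Of the 5 rows above that length, SNORA31 is so only as a sum over 3 loci. The counts do not show whether the reads on any H/ACA row covered the whole RNA or pieces of it, and this was not tested.

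Further large changes were in rows outside the guide lists. SNORA74 (chromosome 5, 138611869 to 138612009) had the most negative estimate of all: 8.56, 14.5, 10.9, 2.46 and 0.21 CPM in exosomes against 77.5, 40.9 and 270 CPM in cells. No value overlapped, and exosome 5 stood lowest by far. The log2 fold change was -4.14 (SE 0.90, adjusted p = 0.00195), and -2.71 without cell 3. SNORA26, hosted in the non-coding gene DANCR, fell by 2.77 on the log2 scale (adjusted p = 0.00329), by 2.18 without exosome 4, and was not called without cell 3 (log2 -1.87, adjusted p = 0.0687). SNORA47, from an intron of ZBED3, was at 8.69, 7.5, 20.4, 5.28 and 21.4 CPM in exosomes and 14.8, 305 and 25.5 CPM in cells. Its call (log2 -3.18, adjusted p = 0.00538) rested on cell 2: without it the log2 value was -0.77 (adjusted p = 0.334). That value was -3.77 without cell 1 and -2.56 without exosome 4.

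Host genes were compared next, since most H/ACA snoRNAs start as parts of host introns. By the hosts annotated in GENCODE (a protein-coding one first where a row lies in several), a grouping made after the values had been seen, 16 tested rows lay in ribosomal protein genes, whose mRNAs are abundant. Of these 9 (56.2%) were lower and none higher, with a median of -1.83. In other protein-coding hosts 18 of 51 tested rows (35.3%) were lower, with a median of -1.18, and in non-coding hosts 2 of 6 (33.3%), with a median of -0.41. In pseudogene hosts 1 of 2 was lower (median -1.25). SNORA31, SNORA74 and SNORA71B matched no transcript and so have no annotated host here. All 3 were lower (median -3.07), and placing them would change these shares. The share lower was 42.3% for all H/ACA rows tested and 22.3% for all features, and the difference between kinds of host was not tested. The lists of hosts from textbook knowledge hold fewer rows: 7 of 14 tested rows listed under ribosomal protein genes were lower (median -1.72), 7 of 17 under other protein-coding genes (median -1.83) and 2 of 3 under non-coding genes (SNORA13, SNORA74A and SNORA73B, median -2.05). The annotation places SNORA74A and SNORA73B in introns of the protein-coding genes MATR3 and RCC1. Where the table had a row for the host itself, host and snoRNA could be set side by side. The SNHG3 row was lower (log2 -2.45) and SNORA73B within its span was not called (-0.93, and -0.24 without cell 3). EPB41L4A-AS1 was not called (log2 1.65, adjusted p = 0.0616) and SNORA13 within its span was lower. DANCR was not called (log2 1.18, adjusted p = 0.194) and SNORA26 within its span was lower. SNHG11 and SNORA60 were both not called (1.47 and 0.72). Each span includes the snoRNA, and no H/ACA row overlaps the counted part of another row.

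TAF1D, which encodes a subunit of the RNA polymerase I selectivity factor, hosts 6 of the tested rows, and they differed widely. SNORA8 was at 15.1, 26.9, 23.8, 8.13 and 6.64 CPM in exosomes and 8.92, 6.42 and 18.8 CPM in cells, and was not called (log2 0.50, SE 0.61, adjusted p = 0.535, and log2 1.39 without cell 3). SNORA18 was not called either (-0.97). SNORA32 was lower (log2 -2.22, adjusted p = 0.0076; not called without cell 3, log2 -1.53), as were SNORA25 (log2 -1.83, adjusted p = 0.0203) and SNORA40 (log2 -2.39, adjusted p = 0.0348). The call of SNORA25 was lost without exosome 1, 3 or 4 or cell 3 (log2 -1.78, -1.62, -1.29 and -0.97). That of SNORA40 was lost without exosome 1, 3 or 4 or cell 2 or 3 (log2 -2.39, -2.30, -1.78, -2.15 and -1.88). Other settings also lost both calls, among them total count scaling (edgeR adjusted p = 0.067 for SNORA25 and 0.0968 for SNORA40). So did the filter of at least 50 counts in 3 libraries (0.0587 and 0.0593), and upper-quartile scaling lost that of SNORA40 (0.0575). SNORA1 just missed the threshold (log2 -1.96, adjusted p = 0.0587) and had no read in exosome 5. It passed without exosome 5 (-1.63, adjusted p = 0.0361) and without cell 2 (-2.35, adjusted p = 0.042), and stood at -1 without cell 3 (adjusted p = 0.461).

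A ratio of 2 neighbours within a library needs no scaling, so it shows directly whether they shifted alike. There were 15 pairs of neighbouring tested H/ACA rows on 1 strand with at most 10 kb between them. In 8 pairs the log2 ratios of the exosome libraries did not overlap with those of the cells, where 34.8% of 319 neighbouring pairs of tested rows in the whole table were so separated. Each of the 8 had p = 0.0357 in an exact permutation test over libraries, two-sided, which is the lowest value possible with 5 and 3 libraries. Over the 15 pairs the adjusted p was 0.0669. No pair passed after adjustment.

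The RPSA pair is the plainest case. SNORA6 over SNORA62 had a mean log2 ratio of -0.37 ± 0.52 in exosomes (-1.09 to 0.32) and of -2.82 ± 0.68 in cells (-3.40 to -2.07), a difference of 2.45. SNORA3 over SNORA45, both from RPL27A, went from -1.83 ± 0.33 in cells to 0.47 ± 0.80 in exosomes. SNORA45 was at 5.74, 13.8, 8.74, 2.02 and 8.46 CPM in exosomes and 28.2, 38.2 and 95.6 CPM in cells, a lower level in every exosome library (log2 -2.80, SE 0.62, adjusted p = 0.00221, and -1.74 without cell 3). SNORA3 was at 9.33, 13.3, 10.1, 6.86 and 7.06 CPM against 8.42, 8.28 and 32.5 CPM and was not called (log2 -0.81, and 0.50 without cell 3). In both ribosomal protein hosts, then, 1 of the neighbours was lower in exosomes and the other was not called.

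Within TAF1D, SNORA8 was higher relative to SNORA18 by 1.38 on the log2 scale in exosomes (-3.25 ± 0.25 in exosomes, -4.63 ± 0.84 in cells), and SNORA1 over SNORA8 differed by -2.93 (-4.39 ± 1.90 and -1.46 ± 0.30). In DKC1, the gene of dyskerin itself, SNORA36A over SNORA56 differed by -2.99 (-3.77 to 0.91 in exosomes and 1.14 to 4.30 in cells). Reads of SNORA36A may in part stem from its near copy SNORA36C in another host, AAK1, which was not tested. SNORA56 alone was not called (log2 -0.60, and 0.21 without cell 3). SNORA74 over SNORA74A differed by -2.77 (-0.14 ± 2.53 and 2.63 ± 0.63), although SNORA74A was called lower too (log2 -2.05, adjusted p = 0.0054; not without cell 3, log2 -1.30). The other 2 of the 8 pairs are copies of SNORA71 and are described with their family.

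The 7 pairs whose groups overlapped had differences of -0.98 to 2.31. SNORA34 over SNORA2A in KANSL2 differed by 0.66 (p = 0.321), SNORA10 over SNORA64 in RPS2 by 1.09 (p = 0.536) and SNORA5A over SNORA5C in TBRG4 by -0.98 (p = 0.464), all by the same exact permutation test. SNORA10, SNORA2A, SNORA5A and SNORA5C were not called themselves (log2 -1.93, -1.10, -2.01 and -1.05), and SNORA5A was at -0.69 without cell 3. The largest, SNORA18 over SNORA40 at 2.31, had p = 0.0714 in that exact test.

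**Figure D5:**
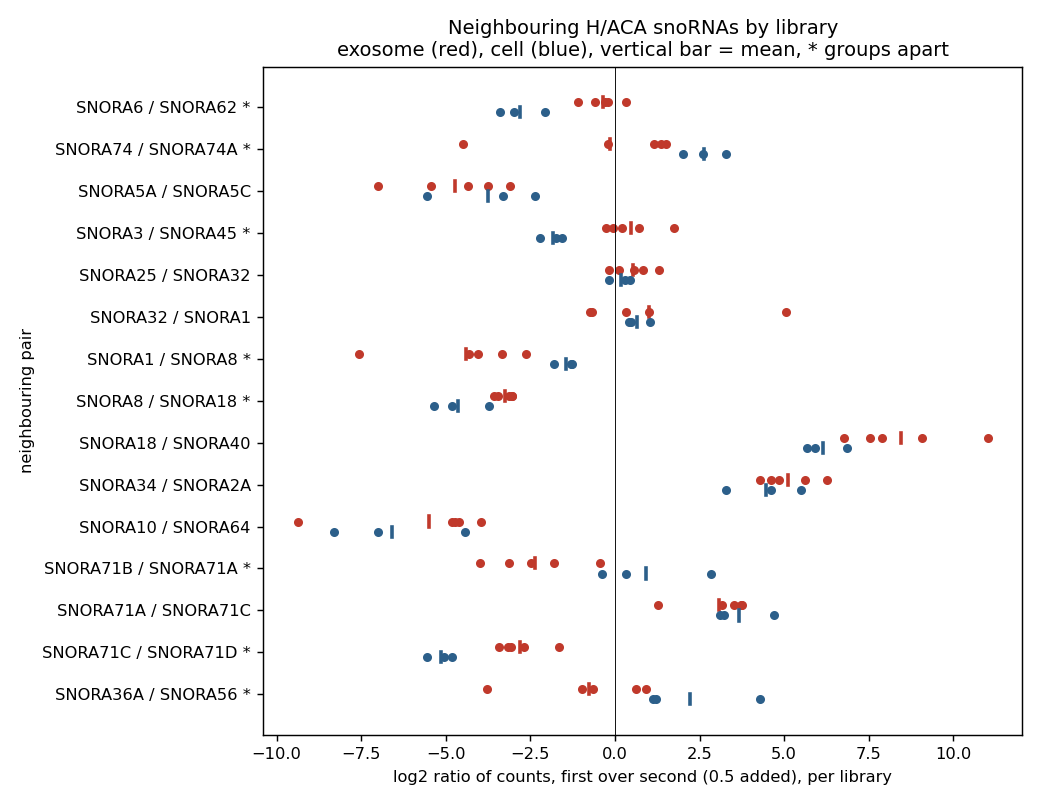
Log2 ratio of the counts of neighbouring H/ACA rows (first over second, 0.5 counts added), one point per library, exosome red and cell blue, with bars at group means. Pairs marked with a star are the 8 whose groups do not overlap, in either direction.

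Copies of a snoRNA did not always move alike, which could be examined where their sequences differ enough to be counted apart. SNORA7A and SNORA7B, in RPL32 and its pseudogene RPL32P3, differ at 2 bases (98.6% identity), marked by capitals here.
SNORA7A: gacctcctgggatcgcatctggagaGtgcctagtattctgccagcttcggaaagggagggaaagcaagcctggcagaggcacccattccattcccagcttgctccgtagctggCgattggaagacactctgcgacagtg
SNORA7B: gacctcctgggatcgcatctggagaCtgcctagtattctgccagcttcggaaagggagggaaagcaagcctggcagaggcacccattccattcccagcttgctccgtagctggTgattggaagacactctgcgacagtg
SNORA7B was at 4.11, 3.45, 7.3, 1.85 and 4.12 CPM in exosomes and 10.4, 10.9 and 10.3 CPM in cells. It was lower in all exosome libraries (log2 -1.33, SE 0.51, adjusted p = 0.045), and its cell values were nearly equal while those of SNORA7A ran from 102 to 587 CPM. How reads that fit both copies were assigned is not given in the sources used here, so the split between them is uncertain.

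The 3 SNORA36 rows are guides of 18S rRNA in different hosts, DKC1 (SNORA36A), AAK1 (SNORA36C) and RAB3GAP2 (SNORA36B). Capitals mark the bases that differ from SNORA36A.
SNORA36A: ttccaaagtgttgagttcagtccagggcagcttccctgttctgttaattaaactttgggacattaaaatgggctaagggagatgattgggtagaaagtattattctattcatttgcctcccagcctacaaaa
SNORA36C: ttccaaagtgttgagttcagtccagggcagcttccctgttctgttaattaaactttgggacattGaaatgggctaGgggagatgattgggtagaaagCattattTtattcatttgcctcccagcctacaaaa
SNORA36B: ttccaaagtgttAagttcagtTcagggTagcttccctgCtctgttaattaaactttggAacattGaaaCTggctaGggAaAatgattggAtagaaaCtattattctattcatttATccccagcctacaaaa
SNORA36A and SNORA36C shared 97.0% of their bases and nearly shared their values. Reads that fit both may count in both rows, and their assignment is not given, so the 2 rows may not be separate observations. SNORA36A was at 0.829, 1.14, 1.1, 0.293 and 0.0699 CPM in exosomes and 2.85, 14.7 and 5.36 CPM in cells (log2 -3.44, adjusted p = 0.00194). SNORA36C was at 0.338, 0.941, 0.986, 0.117 and 0.0699 CPM and 2.47, 14.5 and 3.7 CPM (log2 -3.76, adjusted p = 0.00195). Both were lower with no overlap and cell 2 far above the other cells: without it the log2 values were -2.58 and -2.64. That of SNORA36C was -3.14 without exosome 4. SNORA36B, with 87.9% identity to either, was at 7.49, 2.97, 5.78, 4.96 and 6.99 CPM in exosomes and 2.11, 2.26 and 4.53 CPM in cells. It was not called, with most exosome values above the cells (log2 0.92, SE 0.56, adjusted p = 0.196).

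SNORA71 copies, guides of 18S rRNA that stand in a row on chromosome 20, showed the same kind of split. SNORA71A, SNORA71C and SNORA71D lie in introns of the non-coding gene SNHG17 and share 83.1% to 86.6% of their bases. SNORA71B was at 1.1, 3.19, 2.5, 1.38 and 5.03 CPM in exosomes and 28.1, 4.42 and 23.0 CPM in cells, with cell 2 under exosome 5, and was called lower (log2 -2.82, SE 0.64, adjusted p = 0.00244, and -3.44 without cell 2). SNORA71A was at 17.9, 17.9, 22.0, 4.84 and 6.92 CPM against 3.95, 3.56 and 29.9 CPM. It was not called (log2 0.16), with cell 3 above and cells 1 and 2 below all exosomes, and passed as higher without cell 3. SNORA71C (log2 1.32, adjusted p = 0.179, and 1.91 without exosome 4 and 2.34 without cell 3) and SNORA71D (log2 -0.98, adjusted p = 0.17, and -0.30 without cell 3) were not called. The ratio of SNORA71B to SNORA71A differed by -3.29 on the log2 scale, exosome minus cell (-2.37 ± 1.34 and 0.92 ± 1.69) and that of SNORA71C to SNORA71D higher by 2.34 (-2.80 ± 0.70 and -5.14 ± 0.39).

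Nearby C/D box snoRNAs gave a comparison within hosts. These pairs were chosen after the values had been seen: each H/ACA row was set beside the nearest tested C/D row within 10 kb on its strand, which gave 12 pairs with 8 C/D rows. The C/D estimate was the lower in all 12, though barely for SNORA48 (-0.94) beside SNORD10 (-0.95). Medians were -1.25 for the H/ACA and -3.07 for the C/D rows, both counted once per pair. Of the 12 H/ACA rows 4 were called lower, and of the 8 C/D rows 7, where 22.3% of all features were. In the TAF1D gene, SNORD5 was at -3.07 where SNORA8 was at 0.50 and SNORA18 at -0.97, and SNORA40 beside it was called lower at -2.39. The log2 ratio of SNORA18 to SNORD5 was 0.57 ± 0.45 in exosomes (0.13 to 1.25) and -1.29 ± 0.57 in cells (-1.86 to -0.71), and that of SNORA8 to SNORD5 was -2.68 ± 0.27 and -5.92 ± 1.41. That of SNORA40 to SNORD5 went the other way by -0.45, exosome minus cell, as did SNORA48 over SNORD10 by -0.10, and both overlapped between groups. The pairs of SNORA18 and of SNORA8 with SNORD5 did not overlap between groups (exact permutation p = 0.0357, adjusted p = 0.214 over the 12). The other 10 did overlap, where 34.8% of all neighbouring pairs were apart. Without cell 1 the number apart was 6.

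Over the tested rows, features that the choice by name did not use showed little relation to the shift. Spearman's rho of the log2 fold change was 0.16 with row length over 78 rows and 0.07 with GC content over 75 rows. With the mean level in cells it was -0.44, a value that shares the cell libraries with the fold change itself and is a description only. An ACA box 3 bases from the end was found in 22 of 30 matched rows called lower (73.3%) and in 38 of 45 matched rows not called (84.4%).

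The H/ACA domain also occurs in other RNAs. Small Cajal body RNAs, guides for the spliceosomal RNAs that include H/ACA and C/D kinds, had 18 rows tested, of which 7 (38.9%) were lower, 1 higher and 10 not called, with a median of -1.33, where 22.3% of all features were lower and 20.7% higher. The higher one was SCARNA7 (log2 1.83, adjusted p = 0.0131), at 27.2, 25.9, 43.4, 15.1 and 29.9 CPM in exosomes and 8.18, 7.09 and 8.67 CPM in cells. TERC, the telomerase RNA, which ends in an H/ACA domain, was at 3.56, 3.88, 3.37, 2.35 and 2.24 CPM against 1.76, 2.89 and 3.35 CPM and was not called (log2 0.21, SE 0.55, adjusted p = 0.784). Of the 4 H/ACA rows left out by name, SNORA81 was higher (85.1 against 8.12 CPM, log2 3.39, adjusted p = 0.000348) and SNORA63 lower (log2 -2.99, adjusted p = 0.000295), while SNORA4 (-0.39) and SNORA33 (-1.74) were not called. With them, 34 of 82 H/ACA rows were lower and 1 was higher.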

How the data were processed

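Small RNA libraries of MEC-1 exosomes (5) and cells (3) were deposited as unnormalized featureCounts read counts per row, per the file headers. Build GRCh37 and the tools cutadapt 1.1, STAR, featureCounts and DESeq2 1.8.2 stand in the submitters' processing notes. How strand and reads that fit several places were handled is not given in the sources used here. Counts were compared with edgeR 4.0.16 (quasi-likelihood test, TMM scaling, default low-count filter with a minimum of 10, Benjamini-Hochberg adjustment over the 1178 rows tested) in R 4.3.3. Rows with an adjusted p under 0.05 were called. Each standard error is the log2 fold change divided by the square root of F. The script was tested on simulated counts. CPM are counts scaled to the TMM-adjusted library total. Ratios of neighbours had 0.5 counts added and an exact permutation test over 56 splits, two-sided. Alternatives were DESeq2 1.42.0, limma-voom (limma 3.58.1), other scalings and filters, each library left out, and a replicate block. Named rows were the 10 most abundant per kb in each group, the 12 largest called changes with a mean of 100 counts in the higher group, neighbours, copies of a family by range, and the 4 most abundant of each list; others are said to be chosen later. The members, lists and tests were chosen with earlier results of these data known, and lists of guides and hosts rest on textbook knowledge. Sequences and hosts came from GENCODE release 29 (aligned with Biopython 1.88), matched by symbol, length and chromosome.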

Additional observations from a re-analysis of the deposited data

Results flagged for a closer look

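Among 40 named rows, 2 had an exosome library that lay far from the other 4. The limit is meant to be passed by 1 in 20 rows by chance. The rows share the same libraries, so that rate may not hold here, and whether chance gave the 2 was not tested. SNORA1 had 0 CPM in exosome 5, where the others had 1.18 to 1.6 CPM (gap over range 0.741, limit 0.71). SNORA34 had 174 CPM in exosome 3, where the others had 54 to 60.4 CPM (0.946).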

How the results depend on the processing

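H/ACA rows called lower numbered 24 to 34, and none was higher, under the other scalings, filters and tools (25 with total counts, 24 with at least 50 counts in 3 libraries, 34 with DESeq2, 32 with limma-voom). Those were 32.1% (total counts) to 43.6% (DESeq2) of the H/ACA rows tested. Of all features 12.2% (unfiltered) to 22.8% (DESeq2) were lower. Total count and upper-quartile scaling moved the median of all rows from -0.09 to 0.19 and 0.25 and that of H/ACA rows from -1.51 to -1.26 and -1.29. Leaving out 1 library gave 14 to 34 lower, 0 to 2 higher and medians of -1.76 to -0.65. The extremes of 14, 2 and -0.65 were without cell 3, and the cause was not tested. In these runs 18.2% to 43% of the H/ACA rows tested were lower, where 15% to 22.5% of all features were. The same runs gave mean shares of 0.054% to 0.081% (exosome) and 0.153% to 0.213% (cell), mean log2 ratios to C/D reads of -4.73 to -4.66 and -7.27 to -6.87, and 8 to 9 separated H/ACA pairs. With hosts taken from the annotation in place of the lists, a choice made after seeing the data, 18 rows in other protein-coding hosts were lower, against 7 of those listed. Separated H/ACA and C/D pairs were 2 to 6, with 6 without cell 1. With the 4 left-out rows, 1 row (SNORA81) was higher and the exosome log2 ratio was -4.48; without the most abundant member it was -5.10.

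With the replicate number as a block over replicates 1 to 3, 16 rows (20.5%) were lower, where 15.5% of all features were. Those 6 libraries without the block gave 24 (30.8%), where 19.6% of all features were lower. Same-numbered libraries correlated by 0.01, -0.101 and 0.265 in their deviations, so the numbers do not show the pairs.

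Signs turned in uncalled rows. Leaving out 1 library gave -0.47 to 0.54 for SNORA34, -0.68 to 0.28 for SNORA66, -0.38 to 2.21 for SNORA71A, -1.24 to 0.50 for SNORA3, -1.45 to 0.08 for SNORA18 and -1.01 to 0.21 for SNORA56, where SNORA71A passed at 2.21 and SNORA3, SNORA18 and SNORA56 turned without cell 3 alone. SNORA34 (-0.15 with all libraries) was at 0.27 with total counts, 0.10 with upper quartiles, 0.09 unfiltered, 0.25 at 50 counts, 0.04 and 0.27 without exosomes 1 and 4, 0.06 with the replicate block and 0.19 from those libraries unblocked. SNORA66 (-0.28) was at 0.12 at 50 counts and 0.05 and 0.07 without exosome 3 and cell 3. SNORA71A (0.16) was at -0.27 without cell 2 and -0.07 without exosome 5 and cell 2. Too few reads were counted on 18 rows for a test, and whether depth was the reason was not tested.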
